A study of Mus musculus with 40 samples.

Results

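The genes described here are 10 of the 14318 genes measured by RNA-sequencing in 4T1 and 66cl4 primary tumors: Dnase1l3, Aif1, Fcer1g, Efhd2, Tlr12, Cyp4v3, Evi2a, Sh3bp2, Gprc5a and Zmym6. They were picked because their mean expression in chitin-containing groups differed from that in the other groups with opposite signs in the 4T1- and the 66cl4-based model. In 4T1 primary tumors, 8 of them were lower in the chitin-containing groups and 2 (Gprc5a and Zmym6) were higher, with the reverse in 66cl4. Because the chitin differences chose the genes, these differences are described without a test. Tests are kept for the difference in mean level between the models, the response to anti-PD-1 and the variation between tumors of the same group. The genes also passed, by choice, a limma test of the chitin difference between models. That test divides by the spread between tumors of the same group, so the choice used this spread too. Genes with a small spread may have been favored, so later p-values from limma may be too small and its intervals too narrow.

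The RNA came from primary tumors that wild-type female BALB/c mice carried at 5 w p.i. The mice had been mated at 8 weeks of age, and the lactating mothers were inoculated intraductally in the third mammary gland pair, so that 1 mouse can carry 2 tumors and the labels do not say which tumors came from separate mice. P-values therefore measure the spread between tumors, which may in part be within mice. 4T1-luc and 66cl4-luc are mouse mammary carcinoma lines that express luciferase and serve to model TNBC, and each model rests on 1 line.

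In each model, tumors were untreated, anti-PD-1-treated (200 µg clone RMP1-14 per mouse, i.p.), chitin-treated (1 mg of particles per mouse, i.p.) or chitin + anti-PD-1-treated. No vehicle or isotype antibody is named in the labels of the untreated group. There were 4 untreated 4T1 tumors, since the authors had removed tumor 3 for RNA degradation, and 5 tumors in every other group. Groups that received chitin alone or with anti-PD-1 are called chitin-containing (10 tumors in each model), and untreated and anti-PD-1-treated tumors are called the other groups (9 in 4T1, 10 in 66cl4).

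The measured genes held 5105898 to 14800352 reads in a tumor (median 6590274). Chitin-containing 66cl4 tumors had been sequenced more deeply than the other 66cl4 tumors, with means of 9901574 and 6446900 reads, and the corresponding means in 4T1 were 8436511 and 7034209. Expression values are given on the log2-like scale of the table, on which 0 reads correspond to 6.05 and differences between genes with few reads are compressed. Normalized counts are reads after division by each tumor's size factor. With all tumors thinned to the same read depth, the chitin differences of the 10 genes had the same signs, from -1.03 (Dnase1l3) to 0.38 (Gprc5a) in 4T1 and from -0.21 (Gprc5a) to 0.35 (Aif1) in 66cl4. These signs had chosen the genes in the same tumors. Epithelial markers, which the cancer cells of a mammary carcinoma can carry, summed to between 17538 and 64894 normalized counts in 4T1 tumors and to between 3400 and 6200 in 66cl4 tumors.

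Most of the 10 genes have known roles in myeloid cells. Immune receptors without a signalling tail of their own use adaptors such as the product of Fcer1g, whose ITAM motif is phosphorylated and recruits the kinase Syk, and adaptors such as Sh3bp2 act further downstream. Endosomal Toll-like receptors sense microbial products after uptake, and macrophages clear dead cells, digest their DNA and reshape their actin cytoskeleton while doing so. In bulk tumors, fewer cells of a type and less RNA per cell cannot be told apart.

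Promoter sequences from RefSeq (GRCm38.p6) were found for 7 of the 10 genes, in 8 promoters. The 250 bases before the start of Efhd2, Cyp4v3 and Fcer1g are shown because letters known from binding sites of PU.1, a myeloid factor, or of other ETS factors occur in them. All 3 genes lie on the minus strand, the sequences read 5′ to 3′ on that strand, and capitals mark GAGGAA (a core of PU.1-like sites) or CCGGAA (ETS-like), which on the other strand read TTCCTC and TTCCGG.
Efhd2, chr4:141874921-141875170, minus strand: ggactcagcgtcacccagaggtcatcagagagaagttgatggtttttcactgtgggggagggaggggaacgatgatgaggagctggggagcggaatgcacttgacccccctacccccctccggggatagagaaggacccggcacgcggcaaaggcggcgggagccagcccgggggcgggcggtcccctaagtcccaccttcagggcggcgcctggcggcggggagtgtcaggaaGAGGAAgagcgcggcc
Cyp4v3, chr8:45333164-45333413, minus strand: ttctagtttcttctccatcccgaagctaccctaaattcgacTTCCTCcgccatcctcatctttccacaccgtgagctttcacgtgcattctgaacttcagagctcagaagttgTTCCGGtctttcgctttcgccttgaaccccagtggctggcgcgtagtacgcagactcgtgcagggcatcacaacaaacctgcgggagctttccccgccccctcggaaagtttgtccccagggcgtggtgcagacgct
Fcer1g, chr1:171234350-171234599, minus strand: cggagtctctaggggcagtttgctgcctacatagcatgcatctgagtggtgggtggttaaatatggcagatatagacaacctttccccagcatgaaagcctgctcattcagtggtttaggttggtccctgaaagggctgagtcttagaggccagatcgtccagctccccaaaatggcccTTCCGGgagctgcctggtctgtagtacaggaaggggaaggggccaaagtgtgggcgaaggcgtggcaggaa
The marked letters begin 16 bases before the start of Efhd2, 209 (GAGGAA) and 137 (CCGGAA) bases before that of Cyp4v3 and 71 bases before that of Fcer1g. In windows from 250 bases before to 50 bases after the start, on both strands, GAGGAA was found in 4 of the 7 genes and in 28.3% of the 32851 mouse promoters, and CCGGAA in 2 of 7 and in 14.9%. CACGTG (E-box) was found in 2 of 7 genes, Zmym6 and Cyp4v3, and in 7.15% of promoters, and TGANTCA (AP-1-like) in 0 of 7 and in 7.81%. These matches are descriptions of letters, not of bound sites.

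**Figure D1:**
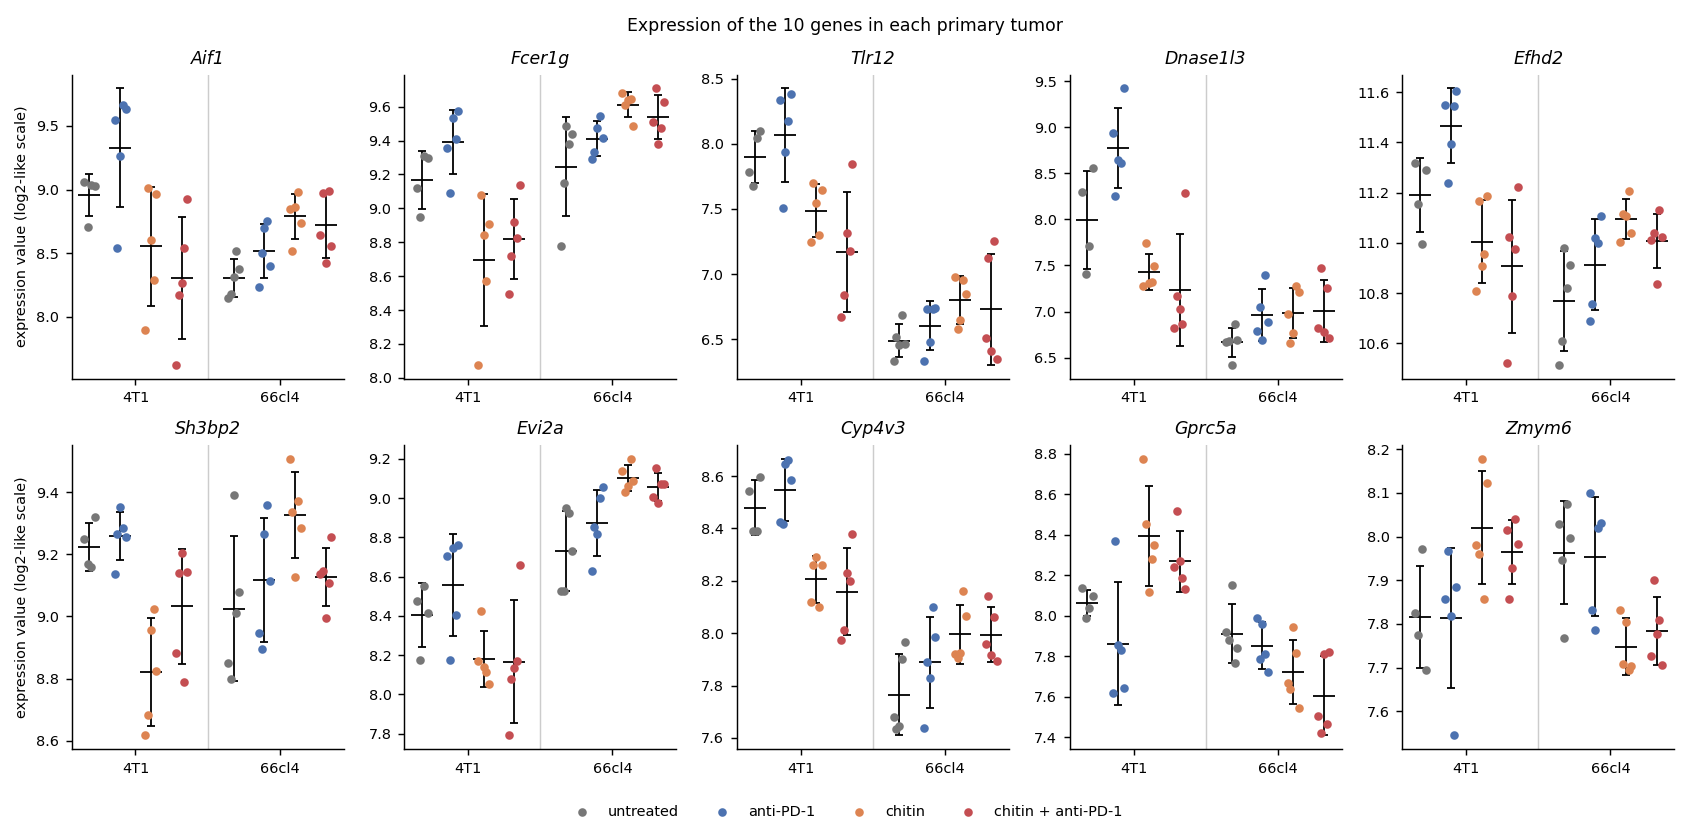
Expression values (vertical axes, log2-like scale, different for each gene) of the 10 genes in each of the 39 primary tumors, grouped by model and treatment. Points are tumors, horizontal bars with whiskers are group means ± SD, and in 4T1 the means of the chitin and chitin + anti-PD-1 groups lie below both other means for the first 8 genes and above them for Gprc5a and Zmym6, while single tumors overlap in all genes but Cyp4v3.

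The adaptor and receptor genes are described first. Fcer1g (chr1:171229572-171234349) encodes the common gamma chain of Fc receptors and of several C-type lectin receptors. In 4T1 primary tumors its values were 9.12, 8.95, 9.31 and 9.30 in untreated tumors and 9.36, 9.09, 9.53, 9.41 and 9.57 with anti-PD-1. They were 8.08, 9.08, 8.84, 8.57 and 8.91 with chitin and 8.50, 8.72, 8.92, 8.82 and 9.14 with chitin + anti-PD-1. Of the chitin-containing 4T1 tumors, 8 of 10 lay below the lowest of the others, and the groups overlapped. Mean normalized counts were 319 in the chitin-containing and 502 in the other 4T1 tumors, and the expression values differed by -0.52 (SD between tumors 0.31 and 0.21). In 66cl4, Fcer1g ranged from 9.38 to 9.71 (median 9.62) in chitin-containing tumors and from 8.78 to 9.55 (median 9.40) in the others. The 66cl4 difference was 0.25, with 6 of 10 chitin-containing tumors above all the others. It was 0.37 for chitin against untreated and 0.13 for chitin + anti-PD-1 against anti-PD-1.

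Tlr12 (chr4:128615446-128618619) encodes an endosomal Toll-like receptor that recognizes profilin of protozoa. It had a mean of 61.0 normalized counts in chitin-containing and 143 in other 4T1 tumors, a difference of -0.66 in expression value (SD 0.37 and 0.29). The 4T1 values ran from 6.67 to 7.85 (median 7.31) with chitin and from 7.51 to 8.38 (median 8.04) without, and 6 of 10 chitin-containing tumors lay below all others. In 66cl4, Tlr12 was covered by few reads, from 2 to 47 per tumor, and its difference was 0.22. Sh3bp2 (chr5:34525784-34563639), an adaptor that binds Syk and Src family kinases, differed by -0.32 in 4T1 and 0.16 in 66cl4. In 4T1, its values were narrow in the untreated and anti-PD-1 groups, from 9.14 to 9.35, and 7 of 10 chitin-containing tumors, which ran from 8.62 to 9.21, lay below that range. In 66cl4, the Sh3bp2 difference was 0.30 for chitin against untreated and 0.01 for chitin + anti-PD-1 against anti-PD-1.

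Aif1 and Efhd2 encode calcium-binding EF-hand proteins that act on actin. Aif1 (chr17:35170986-35176083), also known as IBA1, is a widely used marker of macrophages and microglia. In 4T1 its values were 9.06, 8.71, 9.04 and 9.03 in untreated tumors and 9.54, 8.54, 9.27, 9.66 and 9.63 with anti-PD-1. With chitin they were 7.90, 9.02, 8.60, 8.29 and 8.96, and with chitin + anti-PD-1 7.62, 8.17, 8.27, 8.54 and 8.92. Of the chitin-containing tumors, 5 of 10 lay below all the others, and anti-PD-1-treated tumor 2 was the lowest of the others. Mean normalized counts were 242 and 459, and the difference in expression value was -0.71 (SD 0.47 and 0.40). It was -0.40 for chitin against untreated and -1.02 for chitin + anti-PD-1 against anti-PD-1. In 66cl4, the Aif1 difference was 0.34, with medians of 8.79 with and 8.39 without chitin and overlapping ranges of 8.43 to 8.99 and 8.15 to 8.75.

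Efhd2 (chr4:141858142-141874920), also called swiprosin-1, had the most reads of the 10 genes per exon length, with 911 normalized counts per kb in 4T1 and 780 in 66cl4. The lowest were Zmym6 in 4T1 (16.4) and Tlr12 in 66cl4 (4.47), where Dnase1l3 had 5.21 and Zmym6 15.6. Efhd2 expression values ran from 10.52 to 11.22 (median 10.97) in chitin-containing and from 10.99 to 11.61 (median 11.32) in other 4T1 tumors. The difference was -0.37 (SD 0.21 and 0.20), and 6 of 10 chitin-containing tumors lay below all the others. In 66cl4 it was 0.21, and the SD of chitin-containing tumors (0.10) was smaller than that of the others (0.20).

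Dnase1l3 and Cyp4v3 encode enzymes. Dnase1l3 (chr14:7965187-7994760), a secreted DNase that digests chromatin from dying cells and is made by macrophages and dendritic cells, had the largest chitin difference of the 10 genes in 4T1. Its 4T1 values were 8.30, 7.40, 7.71 and 8.56 in untreated tumors and 8.93, 8.26, 8.65, 8.61 and 9.42 with anti-PD-1. With chitin they were 7.28, 7.75, 7.32, 7.32 and 7.50, and with chitin + anti-PD-1 6.83, 7.17, 7.03, 6.86 and 8.29. Here 7 of 10 chitin-containing tumors lay below all others, and tumor 5 of the chitin + anti-PD-1 group stood above the rest of its group. Mean normalized counts were 64.5 with and 243 without chitin, a 3.77-fold difference, and expression values differed by -1.05 (SD 0.44 and 0.61). The difference was -1.54 for chitin + anti-PD-1 against anti-PD-1 and -0.56 for chitin against untreated. In 66cl4, Dnase1l3 had from 5 to 85 reads per tumor, and its difference was 0.18, with 0.31 for chitin against untreated and 0.04 for chitin + anti-PD-1 against anti-PD-1.

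Cyp4v3 (chr8:45305801-45333163), a cytochrome P450 of the fatty acid hydroxylase family, was the only gene of the 10 whose groups did not overlap in 4T1. Its values were 8.54, 8.39, 8.39 and 8.60 in untreated tumors and 8.42, 8.42, 8.65, 8.66 and 8.59 with anti-PD-1. They were 8.12, 8.26, 8.29, 8.10 and 8.26 with chitin and 7.98, 8.01, 8.23, 8.20 and 8.38 with chitin + anti-PD-1. All 10 chitin-containing 4T1 tumors thus lay below the other 9, which was so for 1 gene of 14318 (0.00698%) in either direction, and this gene is Cyp4v3 itself. In 66cl4, no gene separated the groups in this way (0%). The Cyp4v3 difference was -0.33 in 4T1 (SD 0.13 and 0.11) and 0.17 in 66cl4, where values overlapped between 7.89 to 8.16 and 7.64 to 8.10.

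Evi2a (chr11:79526560-79530609) is a leukocyte gene named after a viral integration site and lies within Nf1 on the opposite strand. It overlaps the read-through gene Evi2 on its own strand, and Zmym6 overlaps Tmem35b, Cyp4v3 overlaps Gm45753 and Sh3bp2 overlaps Gm22847 in the same way, so that reads of these genes could be shared, depending on the annotation used for counting. Evi2a differed by -0.31 in 4T1, where 8 of 10 chitin-containing tumors lay below all others and tumor 5 of the chitin + anti-PD-1 group was high (8.66, against 7.79 to 8.17 in the rest of its group). In 66cl4, it differed by 0.28, and 7 of 10 chitin-containing tumors lay above all the others. The SD of chitin-containing 66cl4 tumors was 0.07, against 0.19 in the others.

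Gprc5a and Zmym6 went the other way. Gprc5a (chr6:135065662-135084709) encodes an orphan receptor of epithelial cells that is induced by retinoic acid. In 4T1 its values were 8.14, 7.99, 8.04 and 8.10 in untreated tumors and 7.62, 8.37, 7.85, 7.83 and 7.64 with anti-PD-1. With chitin they were 8.78, 8.45, 8.12, 8.28 and 8.35, and with chitin + anti-PD-1 8.24, 8.52, 8.27, 8.18 and 8.13. Anti-PD-1-treated tumor 2 stood above 7 of these 10 values, and the groups overlapped. The difference was 0.37 in 4T1 (SD 0.20 and 0.24) and -0.22 in 66cl4, where 6 of 10 chitin-containing tumors lay below all the others. Zmym6 (chr4:127077383-127124374), which encodes a MYM-type zinc finger protein, had small differences of 0.18 in 4T1 and -0.19 in 66cl4. In 66cl4, chitin-containing tumors ran from 7.69 to 7.90 and the others from 7.77 to 8.10.

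In all 10 genes, chitin against untreated and chitin + anti-PD-1 against anti-PD-1 had the same sign within each model. These are the 2 parts of the difference that chose the genes, so that equal signs were likely from the start. The share of all genes with equal signs was not counted. Expressed as a ratio of mean normalized counts, the chitin-containing 4T1 tumors held between 0.266 (Dnase1l3) and 0.764 (Sh3bp2) of the level of the others for the first 8 genes. For Gprc5a and Zmym6 they held 207 and 140 normalized counts on average, against 138 and 113. In 66cl4, the ratios ran from 1.14 (Sh3bp2) to 2.26 (Tlr12, at few reads) for the first 8 genes and were 0.759 and 0.784 for Gprc5a and Zmym6. Over all genes, chitin differences had opposite signs in the 2 models in 56% of genes (27.9% lower in 4T1 and higher in 66cl4, 28.1% the other way), so that opposite signs alone do not mark a gene. A difference between models past an adjusted p of 0.05 (limma, Benjamini-Hochberg over all genes) was found for 14 genes (0.0978%), 3 with a higher (0.021%) and 11 with a lower difference in 4T1 (0.0768%), and 13.2% of genes had an unadjusted p under 0.05. The 10 genes are among these 14 by choice. Cd6, Micu3 and Dnaaf3 were also among them. Just inside this limit was Sh3bp2, and just outside were Sectm1a, Grb2 and Prex1, with differences between models of -0.47, -0.81, -0.24 and -0.76. Micu3, Dnaaf3, Sectm1a and Prex1 are named after their values were seen. Within 4T1 and within 66cl4, no gene passed for chitin in limma (0% in both), although 1042 (7.28%) and 2238 (15.6%) genes fell under 0.05 before adjustment, nor did any gene in limma-voom.

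**Figure D2:**
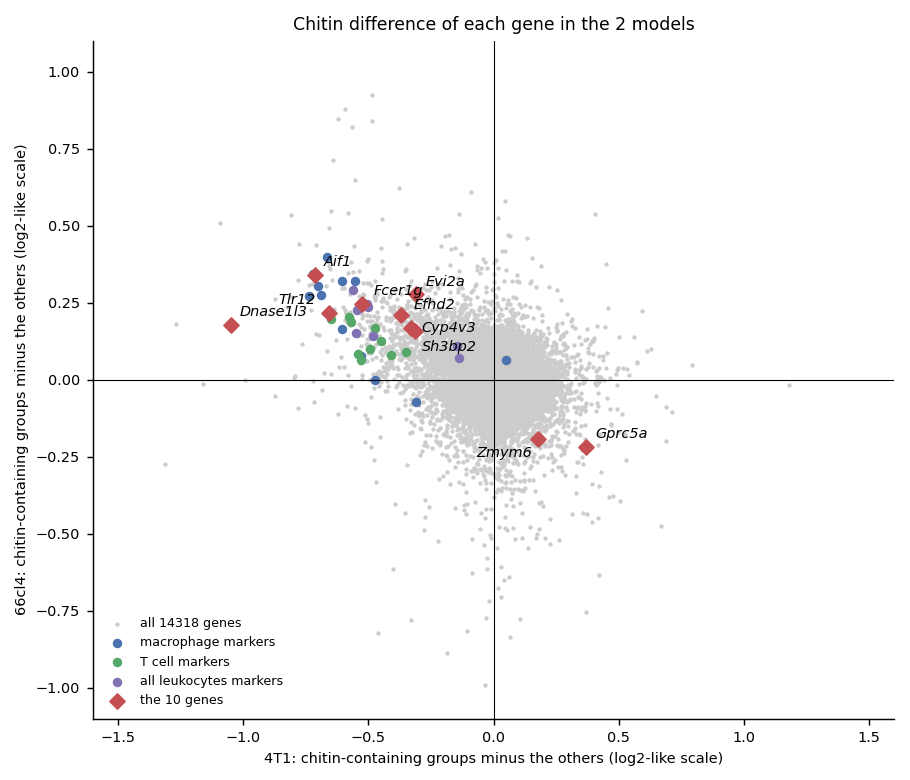
Difference between chitin-containing and other groups (log2-like scale) in 4T1 (horizontal axis) and 66cl4 (vertical axis) for all 14318 genes, of which 1 lies outside the axes. Diamonds are the 10 genes, 8 at the upper left and 2 at the lower right, and most macrophage, T cell and leukocyte markers also lie in the upper left.

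Single tumors moved many of these genes together. In 4T1, anti-PD-1-treated tumor 2 was the lowest of its group for Dnase1l3, Aif1, Fcer1g, Efhd2, Tlr12 and Evi2a and the highest for Gprc5a and Zmym6. It was also the lowest for Cyp4v3, but barely (8.418, against 8.424 in tumor 1). Tumor 5 of the 4T1 chitin + anti-PD-1 group was the highest of its group for Dnase1l3, Aif1, Fcer1g, Efhd2, Tlr12, Cyp4v3 and Evi2a. Without anti-PD-1-treated tumor 2, the Aif1 difference in 4T1 was -0.81 and the Gprc5a difference 0.43, and without tumor 5 of the chitin + anti-PD-1 group the Dnase1l3 difference was -1.18. Leaving out any 1 of the 39 tumors kept the signs of all 10 genes in both models, which were chosen by these signs in the same tumors. The number of genes past the threshold for the difference between models was less steady, from 0 without untreated 4T1 tumor 5 to 677 without anti-PD-1-treated 4T1 tumor 2 (median 5 over the 39 fits).

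Many immune cell marker genes moved along with the 10 genes, and their part in the differences was not tested. In 4T1, 11 of 12 macrophage markers (Adgre1, Csf1r, C1qa and others), 10 of 10 T cell markers, 9 of 10 conventional dendritic cell markers, 5 of 5 B cell markers and 8 of 8 general leukocyte markers were lower in the chitin-containing groups, with median differences of -0.61, -0.51, -0.34, -0.45 and -0.50. In 66cl4, 10 of 12, 10 of 10, 10 of 10, 3 of 5 and 8 of 8 of the same markers were higher, with medians of 0.27, 0.11, 0.15, 0.00 and 0.19, while the medians over all genes were 0.00 in both models. No marker passed the test within a model, and of all markers only Cd6, a T cell receptor-associated glycoprotein, passed for the difference between models (-0.78, adjusted p = 0.0409, limma), and it passed in only 12 of the 39 fits without 1 tumor and not in limma-voom (adjusted p = 0.0595). Of 5 mast cell and basophil markers, 4 were lower in 4T1 (median -0.25), but 5 were also lower in 66cl4 (median -0.13). All 7 natural killer and cytotoxic cell markers were lower in 4T1 (median -0.21), and 4 of 7 were higher in 66cl4 (median 0.04). Neutrophil markers went the other way, with 10 of 11 higher in 4T1 (median 0.16) and 8 of 11 lower in 66cl4 (median -0.08). Mean values of the neutrophil list in 4T1 were 8.01 in untreated, 8.26 in anti-PD-1-treated, 7.98 in chitin-treated and 8.70 in chitin + anti-PD-1-treated tumors. Chitin alone was thus not above untreated for this list in 4T1. It was also near untreated for the B cell (6.51 against 6.44), T cell (7.34 against 7.41) and conventional dendritic cell lists (7.89 against 7.90). These 4T1 lists averaged 7.30, 8.12 and 8.34 under anti-PD-1, and 6.48, 7.18 and 7.80 when chitin was added. Their pooled differences thus rested mainly on tumors given anti-PD-1. Macrophage and general leukocyte lists were lower with chitin alone (10.19 and 9.40) than untreated (10.55 and 9.67), within their spread.

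The summed level of the 12 macrophage markers ran from 41924 to 73273 normalized counts in untreated 4T1 tumors, from 32305 to 127334 with anti-PD-1, from 24247 to 84837 with chitin and from 11025 to 70505 with chitin + anti-PD-1. In 66cl4, the same sums ran from 53713 to 102770, 62931 to 94462, 65511 to 120241 and 83397 to 121225 in these groups, which overlapped in both models. The 10 T cell markers summed to between 414 and 1482, 1005 and 2632, 319 and 1354, and 290 and 1205 normalized counts in the 4T1 groups in the same order, and to between 104 and 433 in 66cl4 tumors. B cell markers had few reads, with sums from 6.51 to 142 normalized counts in chitin-treated 4T1 tumors and from 10.6 to 78.6 in untreated ones. No macrophage, T cell or general leukocyte marker was at 0 in all tumors of a group. In 66cl4, 2 neutrophil markers were at 0 in all chitin-treated tumors and 1 in all chitin + anti-PD-1-treated tumors.

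Markers of other tissues also moved. All 11 epithelial markers were higher in chitin-containing 4T1 tumors (median 0.37) and 10 of 11 in 66cl4 (median 0.12). All 7 skeletal muscle markers were lower in 4T1 (median -0.31) and higher in 66cl4 (median 0.20), with sums from 97.2 to 8396 normalized counts over 4T1 tumors and from 13.1 to 3610 over 66cl4 tumors. None passed the test, and their part in the values of the 10 genes was not tested.

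**Figure D3:**
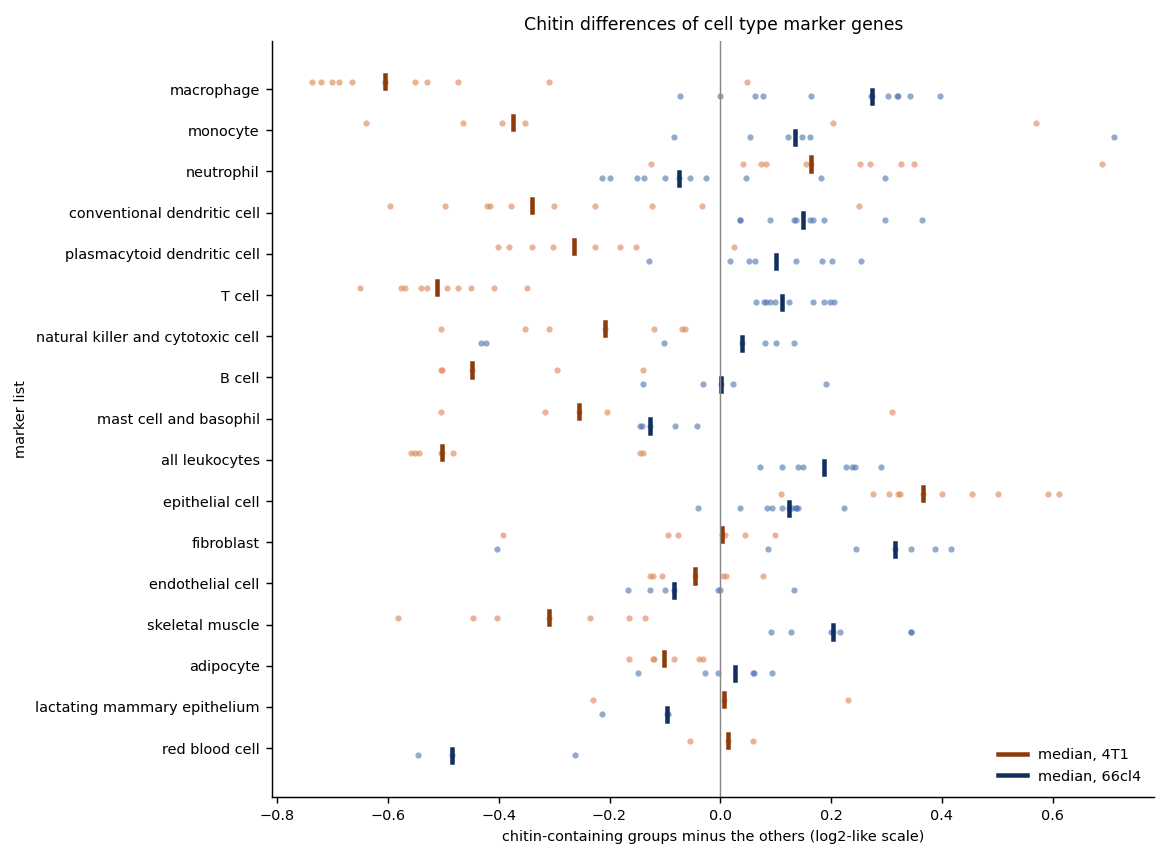
Chitin differences (horizontal axis, log2-like scale) of single marker genes (points) and their median per list (vertical strokes) for 17 cell type lists in 4T1 (orange) and 66cl4 (blue). The medians of the macrophage, conventional dendritic cell, T cell and general leukocyte lists lie below 0 in 4T1 and above 0 in 66cl4.

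Whether the 10 genes vary with immune cells from tumor to tumor was examined after subtracting group means, which removes the differences between treatments that chose the genes. The spread that remains within groups also entered the choice. Each gene was compared with the mean of 10 immune marker lists in each model (200 relations, within-group permutation tests with 100000 resamples, two-sided, Benjamini-Hochberg adjusted). In the 19 4T1 tumors, 6 of 10 genes varied with the macrophage list: Aif1 (r = 0.87), Fcer1g (0.83), Tlr12 (0.83), Evi2a (0.76), Efhd2 (0.69) and Cyp4v3 (0.68). Their adjusted p ranged from 0.000800 to 0.0255 in the permutation test. Of all genes outside the list, 11.8% had an r at least as far from 0 as that of Cyp4v3. Spearman's rho was 0.73, 0.79, 0.74, 0.70, 0.46 and 0.66, of which that of Efhd2 did not pass (permutation p = 0.0693, adjusted p = 0.168). Without the 2 tumors farthest from the median of the list, r was 0.78, 0.86, 0.72, 0.56, 0.41 and 0.55, so that the Efhd2 relation rested partly on these tumors. Without anti-PD-1-treated tumor 2, Efhd2 (permutation test, adjusted p = 0.101) and Evi2a (adjusted p = 0.0698) did not pass, and Efhd2 lost the call without 3 of the 19 tumors in turn. The relation was not particular to macrophage markers. In 4T1, 7 genes passed for the T cell list and 7 for the general leukocyte list. For the conventional dendritic cell, B cell, and mast cell and basophil lists, 6 genes each passed. The share of all genes was counted for the macrophage list only.

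In the 20 66cl4 tumors, 5 genes varied with the macrophage list, namely Tlr12 (r = 0.79, rho = 0.84), Cyp4v3 (0.72, 0.67), Dnase1l3 (0.65, 0.71), Aif1 (0.63, 0.64) and Evi2a (0.62, 0.62). Their adjusted p ranged from 0.000889 to 0.0453 in the permutation test, and without the 2 farthest tumors r was 0.81, 0.68, 0.76, 0.54 and 0.42. Of all genes outside the list, 6.74% had an r at least as far from 0 as that of Evi2a. When each of the 20 tumors was left out in turn, the Evi2a relation lost the call in 13 fits and the Aif1 relation in 8. Fcer1g (r = 0.48, rho = 0.32, permutation test, adjusted p = 0.167) and Efhd2 (r = 0.52, rho = 0.50, permutation test, adjusted p = 0.124) did not pass here. In 66cl4, 5 genes passed for the T cell list and 6 for the general leukocyte list, for which the share of all genes was not counted.

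The closest relations were with other lists. Fcer1g varied with general leukocyte markers in 4T1 (r = 0.92, rho = 0.92, 0.93 without the 2 farthest tumors, permutation test, adjusted p = 0.000500) and in 66cl4 (r = 0.80, rho = 0.77, 0.74 without 2, adjusted p = 0.00171). Efhd2, Evi2a and Sh3bp2 followed the same list in 66cl4, with r of 0.89, 0.87 and 0.73 (rho 0.88, 0.79 and 0.72, and 0.83, 0.79 and 0.72 without 2 tumors, permutation test, adjusted p = 0.00247, 0.00421 and 0.0191). Dnase1l3 varied with the T cell list, with r = 0.78 in 4T1 (rho = 0.75, 0.64 without 2) and r = 0.90 in 66cl4 (rho = 0.90, 0.86 without 2, permutation test, adjusted p = 0.000500), although its reads in 66cl4 were few. In 4T1 it was 1 of 7 genes that passed for this list, with Fcer1g at r = 0.82, Aif1 and Tlr12 at 0.77 and Cyp4v3 at 0.76. Aif1 and Tlr12 also had r = 0.77 with the B cell list in 4T1. Gprc5a fell as the T cell list rose in 66cl4 (r = -0.62, rho = -0.59, -0.50 without 2, permutation test, adjusted p = 0.0486 for r and 0.0571 for rho), and Zmym6 passed for the monocyte list in 66cl4 by r alone (r = -0.59, rho = -0.39, -0.49 without 2, permutation test, adjusted p = 0.0379 for r and 0.240 for rho). Sh3bp2 passed for no list in 4T1, where its r ran from -0.17 to 0.44. With the neutrophil list, r of the 10 genes ran from -0.41 to 0.32 in 4T1 and from -0.28 to 0.35 in 66cl4, and with the natural killer and cytotoxic cell list from -0.09 to 0.37 and from -0.35 to 0.13.

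**Figure D4:**
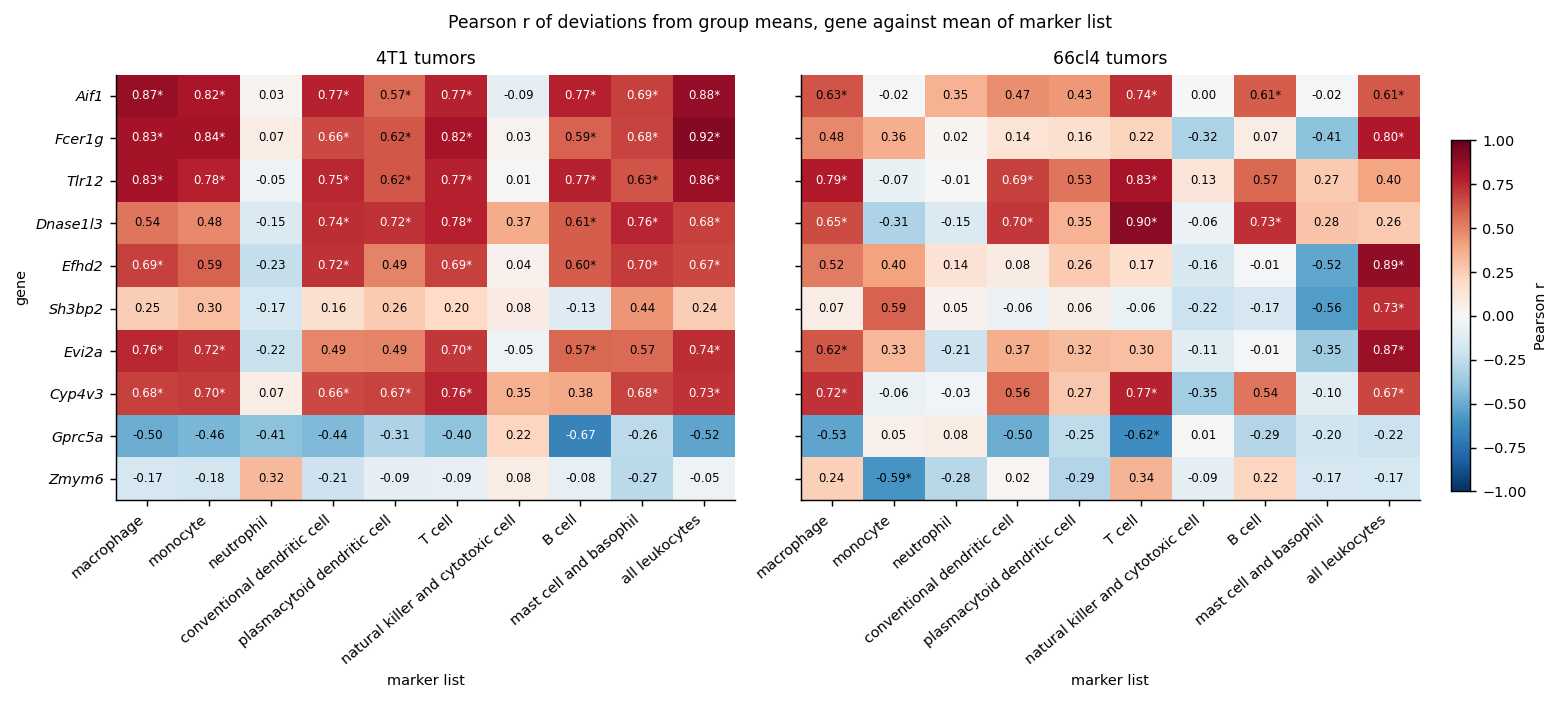
Pearson r between the deviations from group means of each of the 10 genes (rows) and of the mean of each of 10 immune marker lists (columns), in 19 4T1 and 20 66cl4 tumors. Stars mark an adjusted p under 0.05 in the within-group permutation test, and the first 8 genes show positive r with most myeloid and lymphoid lists in 4T1 but with fewer in 66cl4.

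Pairs of the 10 genes were compared in the same way (90 relations, permutation test, adjusted). In 4T1 the closest pairs were Aif1 with Tlr12 (r = 0.88, rho = 0.85, 0.80 without the 2 farthest tumors, permutation test, adjusted p = 0.00135) and Aif1 with Fcer1g (r = 0.87, rho = 0.81, 0.85 without 2, adjusted p = 0.00210). In 66cl4 they were Dnase1l3 with Tlr12 (r = 0.79, rho = 0.78, 0.78 without 2, permutation test, adjusted p = 0.00733) and Efhd2 with Evi2a (r = 0.79, rho = 0.74, 0.68 without 2, adjusted p = 0.0138). Gprc5a was opposed to Tlr12 in both models (r = -0.61 and -0.63, rho = -0.49 and -0.62, -0.46 and -0.56 without 2), with adjusted p of 0.0275 and 0.0469 in the permutation test for r and neither passing for rho. Over all 39 tumors and 14317 other genes, the gene that followed Aif1 most closely was Ly86 (r = 0.91), that of Fcer1g was Arhgdib (0.90), that of Tlr12 was Gpr65 (0.89) and that of Dnase1l3 was Dnaaf3 (0.88). For Evi2a it was Tlr1 (r = 0.84), for Cyp4v3 Zmynd15 (0.83), for Efhd2 Plekho1 (0.79), for Gprc5a Ywhae (0.75), for Sh3bp2 Bak1 (0.74) and for Zmym6 Oxr1 (0.63). These r values are descriptions of deviations from group means, taken as the highest of many.

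The mean level of the genes, taken over the 4 groups of each model, differed between 4T1 and 66cl4 for 7 of 10 genes (limma, adjusted p), which is a share near the 78.8% of all genes that passed (79.9% before adjustment). Higher in 4T1 were 5 of 10 (40.8% of all genes): Tlr12 by 1.00 (95% interval 0.82 to 1.19), Dnase1l3 by 0.95 (0.72 to 1.19), Cyp4v3 by 0.44 (0.35 to 0.52), Gprc5a by 0.38 (0.25 to 0.50) and Efhd2 by 0.20 (0.09 to 0.31). Lower in 4T1 were 2 of 10 (38% of all genes), Evi2a by -0.61 (-0.74 to -0.49) and Fcer1g by -0.43 (-0.57 to -0.29). The adjusted p of these 7 ran from 4.46e-12 to 0.00155 (limma). Aif1 (0.20, -0.00 to 0.41, adjusted p = 0.0676), Sh3bp2 (-0.06, -0.17 to 0.04) and Zmym6 (0.04, -0.04 to 0.12) did not pass. For none of the 10 genes were all tumors of 1 model apart from all of the other, which was so for 17.9% of genes.

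In the order of the 8 group means, Dnase1l3, Tlr12 and Cyp4v3 were highest in the 4 groups of 4T1, led by anti-PD-1-treated tumors (8.77 ± 0.43, 8.07 ± 0.36 and 8.55 ± 0.12, mean ± SD, n = 5), and Evi2a was highest in the 4 groups of 66cl4, led by chitin-treated tumors (9.10 ± 0.07, n = 5). For Aif1, the untreated level was 8.96 ± 0.17 in 4T1 (n = 4) and 8.31 ± 0.15 in 66cl4 (n = 5), whereas with chitin it was 8.55 ± 0.47 and 8.79 ± 0.18 (n = 5 each), which did not differ beyond their spread. The means of Dnase1l3 in 66cl4 with anti-PD-1, chitin and both (6.96, 6.98 and 7.01, SD 0.28, 0.27 and 0.33) were likewise within their spread. Zmym6 means spanned only 7.75 to 8.02, with SDs from 0.06 to 0.16.

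Anti-PD-1 gave no change that passed the test in any of the 10 genes. In 4T1, the difference between anti-PD-1-containing and other groups ran from -0.16 (Gprc5a, 95% interval -0.37 to 0.04) to 0.29 (Dnase1l3, -0.12 to 0.71), and in 66cl4 from -0.09 (Gprc5a, -0.23 to 0.05) to 0.16 (Dnase1l3, -0.07 to 0.39). By limma, 0 of 10 genes passed in either model or for the difference between models, where 0%, 0% and 0.00698% of all genes passed, and 0 of 10 had an unadjusted p under 0.05, in limma-voom as well. Over all genes, the unadjusted counts were 1001 (6.99%), 440 (3.07%) and 820 (5.73%). The response to anti-PD-1 differed most between models for Sh3bp2, by 0.18 (-0.03 to 0.38, adjusted p = 0.872, limma).

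Whether the chitin difference depended on anti-PD-1 was tested as an interaction, and 0 of 10 genes passed in 4T1 or in 66cl4 (limma, with 0% of all genes in both, and limma-voom). In 4T1, Dnase1l3 (-0.98, 95% interval -1.81 to -0.15) and Efhd2 (-0.37, -0.75 to -0.00) had unadjusted p-values of 0.0233 and 0.0497 in limma (adjusted p = 0.927), and 1 of 10 was under 0.05 in limma-voom. In 66cl4, the values ran from -0.29 (Sh3bp2, -0.59 to 0.01) to 0.04 (Zmym6, -0.15 to 0.24), and 0 of 10 had an unadjusted p under 0.05. Over all genes, 648 (4.53%) and 714 (4.99%) did.

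**Figure D5:**
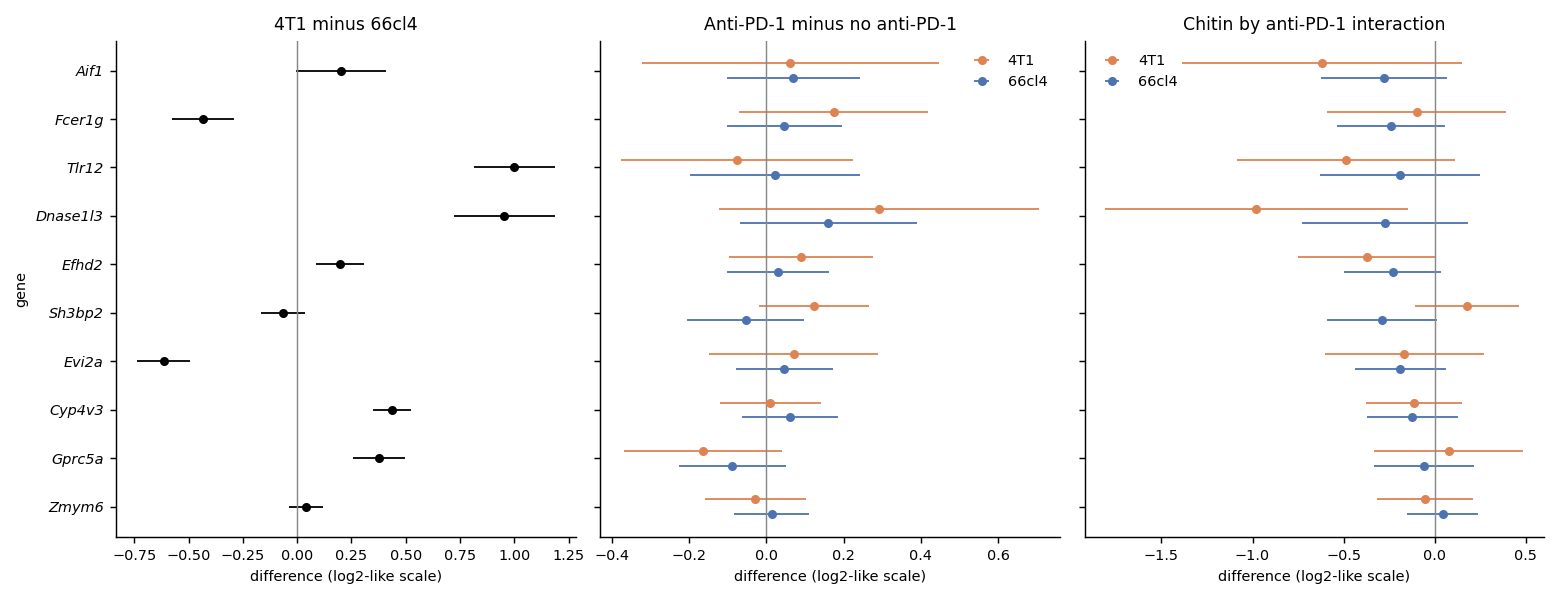
Differences (horizontal axes, log2-like scale) of the 10 genes between models, between anti-PD-1-containing and other groups, and for the chitin by anti-PD-1 interaction, with 95% intervals from limma. Intervals exclude 0 for 7 genes in the comparison of models, for none with anti-PD-1, and for Dnase1l3 and Efhd2 in 4T1 in the interaction before adjustment.

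Other genes of the same pathways were described from lists that hold none of the 10 genes. Of 10 partners and relatives of Fcer1g (Fc receptors, C-type lectin receptors, Tyrobp), 8 were lower with chitin in 4T1 and 8 higher in 66cl4 (medians -0.22 and 0.12). Of 17 genes of ITAM and Sh3bp2 signalling, 14 were lower in 4T1 and 12 higher in 66cl4 (medians -0.19 and 0.05). Of 14 genes of endosomal Toll-like receptors and their adaptors, 12 were lower in 4T1 and 12 higher in 66cl4 (medians -0.30 and 0.10). Of 7 DNases and DNA sensors, 6 were lower in 4T1 and 5 higher in 66cl4, and of 12 actin and podosome genes, 9 and 9.

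Lists around the remaining genes followed. Cytochrome P450 family 4 genes other than Cyp4v3 were lower in 4T1 in 2 of 5 and higher in 66cl4 in 3 of 5. Of 11 genes of the Gprc5 family and the retinoic acid response, 7 were lower in 4T1 and 7 in 66cl4 (medians -0.06 in both). MYM-type zinc finger genes other than Zmym6 were higher in 4T1 in 4 of 6 and lower in 66cl4 in 4 of 6 (medians 0.04 and -0.01). At the Evi2a locus, 3 neighbours (Nf1, Rab11fip4 and Rnf135) were measured, of which 1 was lower in 4T1 and 1 in 66cl4. Within each model, 0 genes of these 9 lists passed for chitin in limma.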

How the data were processed

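The deposited table holds 1 column of values per primary tumor, on a log2-like scale from the authors' variance stabilizing transformation with DESeq2. Per the study's methods, the authors extracted RNA, built libraries with TruSeq chemistry, sequenced them in pairs of 150 bp, mapped reads to mm10 with HISAT2 (version not given in the sources used here), counted with summarizeOverlaps using strand, and kept genes above 10 reads in at least 10% of cases. The number of genes the paper gives after this filter is not the 14318 measured here. The values, which the authors deposited on this log2-like scale, were used as they are, and all sample columns of the table were used. Inverting the transformation gave whole reads for 100% of values (within 0.001 reads), from which depth and normalized counts were taken. No molecular identifiers were used, so reads are not independent molecules, and precision is given as the SD between tumors.

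Groups came from the labels. limma 3.58.1 in R 4.3.3 (mean-variance trend, Benjamini-Hochberg over 14318 genes, threshold 0.05) was fitted within each model, or over all 8 groups for comparisons of models, after tests on simulated data. Correlations used Python 3.11.15 with numpy 2.4.6 and scipy 1.17.1. The 10 genes, the 17 marker lists and 9 pathway lists were chosen with earlier results of these data known. Fcgr1, Ncr1, Irf8 and Coro1a stand in more than 1 list. Named genes are the 10, list genes, and for each of the 10 the 3 genes with the most similar deviations over 39 tumors, of which the first is given. Any other gene is said to be named after its values were seen. Alternatives were to drop the 25% of genes lowest in mean value, to fit no trend, to fit both models at once, to centre on medians, to normalize by quantiles, to weight arrays, to block on tumor number, limma-voom on recovered reads, equal read depth, Spearman in place of Pearson, and leaving out each tumor. Positions and promoters are from RefSeq (GRCm38.p6). The removed untreated 4T1 tumor 3 was not analysed here, and 1 gene of the pathway lists is not reported here.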

Additional observations from a re-analysis of the deposited data

Results flagged for a closer look

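Among 80 combinations of gene and group examined for a tumor far from the rest of its group, 2 were found, where chance gives about 1 in 20. Dnase1l3 in 4T1 chitin + anti-PD-1 tumor 5 was 8.29, against 6.83 to 7.17 in the other 4 tumors. Aif1 in untreated 4T1 tumor 2 was 8.71, against 9.03 to 9.06 in the other 3.

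Among the marker genes of the cell type lists, 1 gene responded differently to chitin in the 2 models in the interaction test of limma. The T cell marker Cd6 differed between models by -0.78 (adjusted p = 0.0409, limma). It passed in 12 of the 39 fits without 1 tumor (adjusted p from 0.00318 to 0.0850) and not in limma-voom (adjusted p = 0.0595), and it was not tested with the 25% of lowest genes left out. It was lower with chitin in 4T1 and higher in 66cl4, in the same direction as Fcer1g, Aif1 and Tlr12.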

How the results depend on the processing

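All 10 genes kept opposite signs of the chitin difference in the 2 models under each alternative that fitted them, also without any 1 tumor (10 to 10). The genes were chosen by this difference in the same tumors, so kept signs were likely from the start. The share of all genes that kept their signs was not counted. The filter on the 25% of lowest genes left out Dnase1l3 and Tlr12, and the other 8 kept theirs. On the uncompressed scale of limma-voom, differences of genes with few reads were wider, such as -2.06 in 4T1 and 0.58 in 66cl4 for Dnase1l3. In the model comparison, 7 to 8 of 10 genes passed without single tumors. Aif1 passed with array weights (0.26). With quantile normalization Zmym6 was -0.013 and Efhd2 0.10 (adjusted p = 0.131, limma), and the whole-table split moved from 5838 higher and 5445 lower to 4944 and 6412. Effects of anti-PD-1 and its interaction with chitin stayed at 0 to 0 of 10 genes without single tumors and at 0 under the other alternatives. The number of genes past the threshold for the chitin difference between models, 14, was 8 without the 25% of lowest genes, 39 with quantile normalization and 1004 with array weights. The anti-PD-1 counts over all genes, 0 in 4T1 and 1 for the difference between models, became 41 and 35 with array weights, 39 in 4T1 with both models in 1 fit, 2 for the difference with quantile normalization, and 13 and 15 without anti-PD-1-treated 4T1 tumor 2. For chitin within models, 0 in both, they became 58 and 1 with both models in 1 fit, 297 and 185 with array weights and, in 66cl4, 6 with the low filter, 6 at equal depth and up to 269 without untreated tumor 3. The causes were not tested.

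Pathway genes passing for chitin in 4T1 (0) were 2 with both models in 1 fit and 13 with array weights (0 to 0 without single tumors). In 66cl4 (0) they were 1 with array weights and 0 to 4 without single tumors (4 without untreated tumor 3). For the difference between models (1) they were 2 without a trend, 2 with quantile normalization, 26 with array weights, 0 at equal depth and 0 to 23 without single tumors, with 23 without anti-PD-1-treated tumor 2, 17 without chitin + anti-PD-1 tumor 5, 12 without chitin tumor 2 and 8 without untreated tumor 2 of 4T1, and 0 without most others. Genes varying with the macrophage list were 4 to 6 in 4T1 and 3 to 5 in 66cl4 without single tumors (3 without untreated tumor 4, anti-PD-1 tumor 1, chitin tumor 4 or chitin + anti-PD-1 tumor 1 or 2). Cyp4v3 did not pass for this list at equal depth in either model (adjusted permutation p = 0.0519 and 0.0920) or with median centring in 4T1 (0.0566). Of relations that never passed, Sh3bp2 in 66cl4 was -0.011 with Spearman and -0.086 to 0.17 without single tumors, and Zmym6 in 4T1 -0.27 to 0.019.

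The tumor number is not stated to pair tumors. Same-numbered tumors correlated by 0.010 in 4T1 and 0.062 in 66cl4 on average, and 11 of 27 and 11 of 30 pairs were over 0.1. For tumors of different groups with different numbers, the means were -0.0006 and -0.015. Of these pairs, 32 of 108 and 31 of 120 were over 0.1. With the number as a block, genes past the threshold for the chitin difference between models were 104, 16 genes passed for chitin in 66cl4, pathway genes passing for the difference were 10, genes varying with the macrophage list in 66cl4 were 1 (Dnase1l3, Aif1, Cyp4v3 and Evi2a no longer passed, adjusted permutation p = 0.171, 0.0983, 0.116 and 0.0867), in 4T1 Cyp4v3 did not pass (0.0769) and Dnase1l3 did (0.00338), and r of Sh3bp2 with this list in 4T1 was -0.15.

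Few reads limit Tlr12 and Dnase1l3 in 66cl4. Fitting both models at once gives no other value for comparisons that already use all groups.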
